A study of Mus musculus with 6 samples.

Results

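The SLC2 genes encode the GLUT proteins, carriers in the cell membrane that let glucose and related sugars move down their concentration gradient. Members were the genes Slc2a1, Slc2a3, Slc2a4, Slc2a5, Slc2a6, Slc2a8, Slc2a9 and Slc2a12, taken by name, and every probe set of the array to which the platform annotation gives one of these symbols alone was included. They were 8 of 18193 named genes and 16 of 34945 probe sets with a single symbol. The fat studied was epididymal white adipose tissue, the pad along the epididymis, of 10-week-old males on a mixed C57BL6;129Sv background. The mutant group, Pparg ldi/+, carried 1 ldi allele and 1 wild-type allele of Pparg, the gene of the nuclear receptor that drives adipocyte differentiation. How the allele was made, and where its product is expressed, the sources used here do not say. The control group was wild type (WT) and litter-matched. Each group had 3 mice with 1 Affymetrix MOE430v2.0 array each, so the number of arrays limits the precision.

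Insulin raises glucose uptake in fat mainly by bringing GLUT4 (Slc2a4) from vesicles inside the adipocyte to its surface, while the protein keeps cycling between both places. GLUT1 (Slc2a1) sits at the surface of most cells and carries their basal uptake. In fat, glucose supplies the glycerol backbone of stored triglyceride and carbon for new fatty acids. The other members carry fructose (Slc2a5), urate (Slc2a9) or hexoses, some across membranes inside the cell.

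Values are the deposited probe set intensities, each array scaled to a trimmed mean of 500; they are called signals here and have arbitrary units. Differences are of log2(signal + 32), Pparg ldi/+ minus wild type, which understates the change of dim genes. A gene was read from its probe set with the highest mean signal, leaving out x_at sets where another existed. Features with a mean over the 6 arrays below the median of all probe sets, a log2 value of 7.46, were not tested. Some genes thus reached the test only through the group where they were brighter. Examples below the limit in wild type were Slc2a5, Slc2a9, Aldoc, Slc45a3, Pvalb, Cd79b, Nkg7 and the epididymal genes Teddm2, Lcn9 and Cst12. In Pparg ldi/+ Slc2a13 and Syt7 lay below it. In the text rose and fell mean a limma adjusted p (Benjamini-Hochberg, two-sided, over all genes or all probe sets tested) under 0.05.

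The arrays were alike in overall brightness, and the tissue's own markers were present in both groups. Deposited trimmed means lay between 201 and 236. Adipoq, the adiponectin gene and a defining adipocyte marker, averaged 26690 ± 1431 over the wild-type arrays and 12010 ± 2576 over the mutant arrays (SD, n = 3 each). All 22 macrophage markers tested rose, with a median log2 difference of 1.66. Of 12 adipocyte markers 10 fell (median -1.16), and of 15 endothelial markers 11 fell and 1 rose (median -0.92). Genes of the epididymis stood high on Pparg ldi/+ arrays 1 and 2 alone: their summed signal was 23560 and 32290 there, 771 on Pparg ldi/+ array 3, and 754 to 1357 on the wild-type arrays. Results below are therefore also given, for many but not all named genes, with array 3 as the only mutant array. A gene without such a value may still change there. This alternative was chosen after seeing the data and assumes that the lone array varies like the others. Many calls did not pass in it, so the gene lists mostly carry only the sizes of differences.

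The leading markers show the same split. Retn, Plin4, Acvr1c and Cidec led the adipocyte list at -3.76, -1.82, -3.94 and -2.00, and Esam, Kdr, Cdh5 and Tek led the endothelial list at -1.12, -1.48, -1.18 and -0.96, where Plvap was the 1 that rose. Clec7a, Mpeg1, C1qb and Aif1 led the macrophage list at 1.79, 2.57, 1.70 and 3.26. The lymphocyte genes Il7r, Cd79b and Nkg7 rose by 2.20, 1.26 and 1.42, and the Schwann cell genes Mbp and Pmp22 by 0.73 and 0.46, while Ms4a1 (0.22), Gfra3 (0.45), Sox10 (0.06) and the red cell genes Slc4a1 (0.44) and Alas2 (-0.31) did not pass. The mesothelial genes Msln, Krt19, Muc16 and Gpm6a fell by 1.62, 1.23, 1.20 and 0.83. The epididymal genes Teddm2, Lcn9, Cst12 and Rnase10 averaged 4.08, 4.02, 3.96 and 2.86 above wild type.

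**Figure D1:**
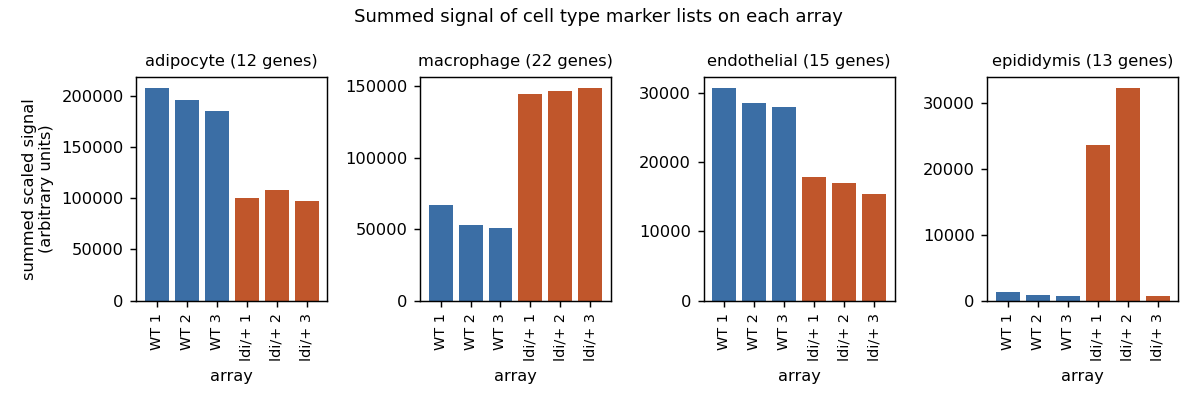
Summed scaled signal (arbitrary units, linear axis from 0) of the adipocyte, macrophage, endothelial and epididymal marker genes on each of the 6 arrays, with wild type in blue and Pparg ldi/+ in orange. The epididymal sum is high on Pparg ldi/+ arrays 1 and 2 (23560 and 32290) and at the wild-type level on array 3 (771).

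Across the 8 genes, Slc2a4 fell, Slc2a1 rose, and the other 6 either did not pass the test or were too dim for it. Of the 6 genes tested, 1 rose, 1 fell and 4 did not pass. Over all 11201 genes tested, 32.7% were called, 16.3% higher and 16.4% lower, so the share of called members was near the background. Among the 10 member probe sets tested, 2 rose and 2 fell, where 29.0% of all 22519 probe sets were called. The groups did not overlap in 3 of the 6 genes and 6 of the 10 probe sets, against 47.6% of all genes and 44.4% of all probe sets tested. The median difference of the 6 genes was 0.20, and that of all genes tested was -0.004. Members that did not reach the test were Slc2a6 and Slc2a12.

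**Figure D2:**
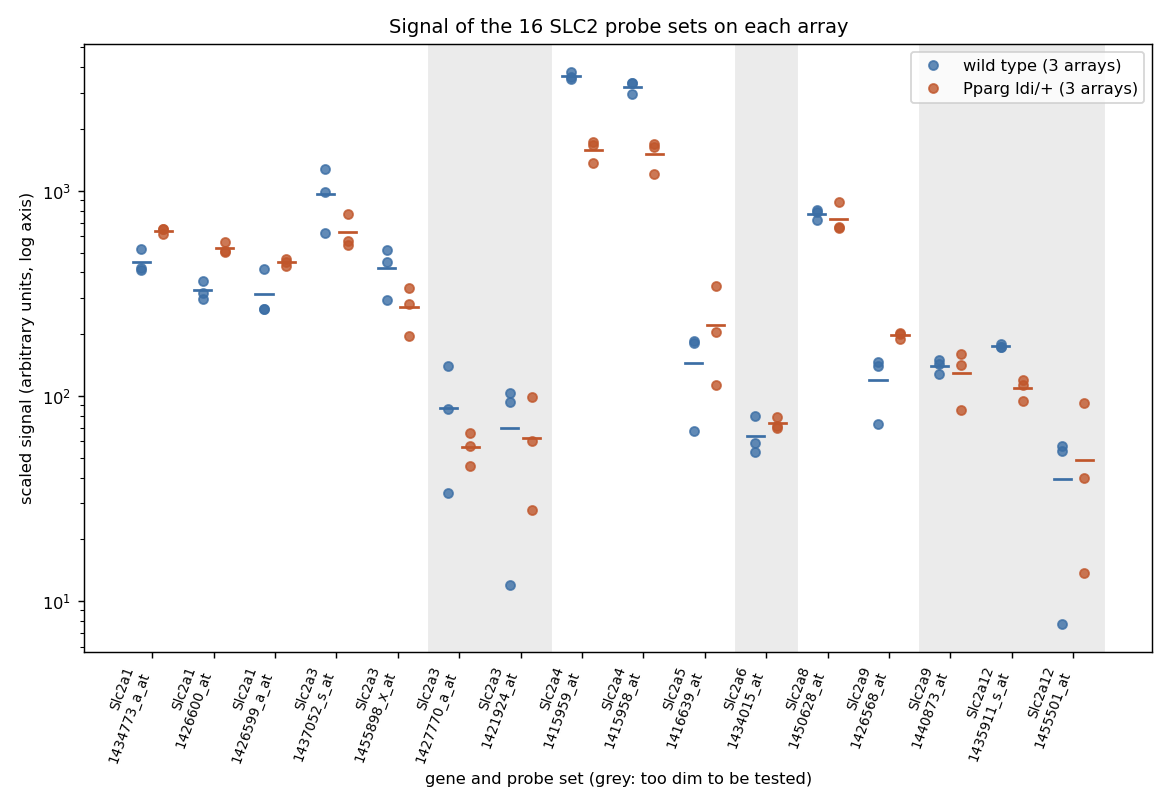
Scaled signal (arbitrary units, log axis) of the 16 SLC2 probe sets, with 1 point for each array, a bar at the mean of each group, and a grey band where the probe set was too dim to be tested. For Slc2a4 the 3 Pparg ldi/+ points of probe set 1415959_at, at 1363 to 1729, lie below the wild-type points at 3508 to 3811, and all 3 Slc2a1 probe sets are higher in every Pparg ldi/+ array than in any wild-type array.

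Slc2a4, the insulin-regulated transporter, was lower in Pparg ldi/+ fat in both of its probe sets. The signal of probe set 1415959_at was 3600, 3508 and 3811 on wild-type arrays 1 to 3, and 1729, 1676 and 1363 on Pparg ldi/+ arrays 1 to 3. Every mutant array lay below every wild-type array, with array 3 the lowest. The means were 3640 ± 156 (SD, n = 3) and 1589 ± 198 (SD, n = 3), a 2.27-fold fall (log2 difference -1.19, 95% confidence interval -1.42 to -0.95, SE 0.101, limma adjusted p = 5.59e-05 over genes). Among all genes tested, 2.5% had a more negative difference.

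The second Slc2a4 probe set, 1415958_at, gave nearly the same picture. Its signal was 2962, 3362 and 3343 in wild type and 1633, 1690 and 1202 in Pparg ldi/+, again without overlap. It fell 2.13-fold (log2 -1.09, 95% confidence interval -1.39 to -0.79, limma adjusted p = 0.000336 over probe sets). With array 3 as the only mutant array, the probe sets differed by -1.40 and -1.40 and both passed (limma adjusted p = 0.000998 and 0.00132). An exact two-sided permutation test of the 6 values gave p = 0.1 for each, the smallest that 3 against 3 arrays allow.

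In whole fat pads, fewer adipocytes and less Slc2a4 RNA in each adipocyte cannot be told apart. The summed signal of the adipocyte markers was lower too, at 185000 to 208200 on the wild-type arrays and 97570 to 107800 on the mutant arrays. These markers moved unequally. The means of Fabp4 (31480 in wild type, 28270 in Pparg ldi/+) and Lpl (26210 and 23250) differed little and did not pass. The part of the adipocyte markers in the fall of Slc2a4 was not tested. Skeletal muscle also expresses Slc2a4, and fragments of it would carry muscle genes. Ckm, the muscle creatine kinase gene, averaged 187 ± 11.7 over the controls and 184 ± 13.2 over the mutants (SD, n = 3 each) and did not pass. The test covered 5 of 14 muscle markers, of which Myl1, a myosin light chain gene, fell 3.30-fold, from 1842 ± 336 to 531 ± 26.5 (SD, n = 3 each; log2 -1.72, limma adjusted p = 3.21e-05), a larger fold than that of Slc2a4. Pvalb, the parvalbumin gene, rose by 1.20, while Casq1 (0.13) and Acta1 (-0.19) did not pass. The summed signal of all 14 was 3110 to 5262 in wild type and 2452 to 3134 in Pparg ldi/+, and its part in the fall of Slc2a4 was not tested.

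Slc2a1, the basal glucose transporter, was modestly higher in Pparg ldi/+ fat. Probe set 1434773_a_at had signals of 409, 420.0 and 523 in wild type and 618, 651 and 650.0 in Pparg ldi/+, so the mutant arrays were close together and above all controls. The means were 450 ± 62.7 and 640 ± 18.4 (SD, n = 3 each), a 1.40-fold rise (log2 difference 0.48, 95% confidence interval 0.21 to 0.76, SE 0.121, limma adjusted p = 0.0149 over genes). The difference was as large with mutant array 3 alone (0.51), although it did not pass there (limma adjusted p = 0.165). Leaving out Pparg ldi/+ array 3 also ended the call, at 0.47 with a limma adjusted p of 0.0513. In the fit over probe sets the call of 1434773_a_at (limma adjusted p = 0.0168) was lost without any 1 of mutant arrays 2 and 3 and wild-type arrays 1 and 2, with differences of 0.42 to 0.47.

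The other Slc2a1 probe sets moved the same way. Probe set 1426600_at read 298, 318 and 364 in wild type against 560, 503 and 507 in Pparg ldi/+ and rose 1.55-fold (log2 0.63, 95% confidence interval 0.35 to 0.91, limma adjusted p = 0.00474 over probe sets). With array 3 alone 1426600_at differed by 0.59. Probe set 1426599_a_at read 265, 266 and 414 in wild type against 431, 465 and 447 in Pparg ldi/+. Its groups did not overlap, but wild-type array 3 came close to the mutant values, and the difference of 0.49 did not pass (limma adjusted p = 0.0615). It passed in 3 of the 16 alternatives that tested it. Without wild-type array 3 the difference was 0.69 (limma adjusted p = 0.00592). Macrophage markers rose beside Slc2a1, with summed signals of 50660 to 66540 in wild type and 144400 to 148800 in Pparg ldi/+. Other cell types moved too. Summed endothelial signals were 27870 to 30700 in wild type and 15330 to 17850 in Pparg ldi/+, while lymphocyte and Schwann cell sums were higher on every mutant array. The part of any of these cells in the rise of Slc2a1 was not tested.

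The log2 difference between the brightest probe sets of Slc2a4 and Slc2a1 on the same array changed by -1.67 from wild type to Pparg ldi/+. Both genes had already separated the groups in opposite directions, so this is a description with no test, and it says nothing of which gene is the more abundant.

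The promoter of Slc2a1 is shown because it was the only called member with an entry in the RefSeq promoter table (GRCm38.p6), which matched 6 of the 8 members. Slc2a3 and Slc2a4 have no entry there. The 250 bases before the annotated start are printed 5′ to 3′ in lower case, with capitals for the hypoxia response core (ACGTG or CACGT) and the GC box (GGGCGG or CCGCCC), both searched on both strands.
Slc2a1 promoter, chr4:119108495-119108744, plus strand: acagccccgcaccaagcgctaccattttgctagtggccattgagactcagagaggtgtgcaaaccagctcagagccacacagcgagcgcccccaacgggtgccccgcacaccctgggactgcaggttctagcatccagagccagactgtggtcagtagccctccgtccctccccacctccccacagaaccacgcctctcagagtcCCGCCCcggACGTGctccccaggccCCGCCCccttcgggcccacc
The hypoxia response core was searched as ACGTG only, a form of the letters that hypoxia-inducible factors recognise. The form GCGTG was not counted. ACGTG occurred 1 time, starting 36 bases before the start, between GC boxes at 45 and 20 bases. Of all 32851 promoter windows of this length, 16.6% held the core and 32.7% held a GC box. Slc2a1 was the only member of the 6 with ACGTG on either strand, which does not cover the form GCGTG. A GC box was found in 3 (Slc2a1, Slc2a5 and Slc2a6). None of the 6 (0) held the E-box CACGTG, which contains the core and was found in 6.02% of all windows, or the DR1 consensus, the repeat that PPARG binds with its partner RXR, which was found in 0.0335%. The letters alone do not show that a factor binds there.

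Slc2a3, the high-affinity transporter best known from neurons and also made by blood cells, was lower on average in Pparg ldi/+ but did not pass. Probe set 1437052_s_at read 982, 621 and 1283 in wild type and 569, 771 and 547 in Pparg ldi/+. Wild-type array 2 lay among the mutant values, and the groups overlapped. The log2 difference was -0.55 (95% confidence interval -1.10 to 0.004, limma adjusted p = 0.119 over genes). Without wild-type array 2 the difference was -0.82 (limma adjusted p = 0.0137). It passed in only that 1 of 18 alternatives, over which the difference ran from -0.82 to -0.32.

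The remaining Slc2a3 probe sets pointed the same way or were too dim. Probe set 1455898_x_at, whose suffix marks probes that may also bind other transcripts, read 452, 294 and 515 in wild type and 282, 335 and 195 in Pparg ldi/+. It differed by -0.57 (limma adjusted p = 0.101 over probe sets) and showed the same low wild-type array 2. The dim sets 1427770_a_at and 1421924_at had signals between 11.9 and 140 across the arrays, differences of -0.33 and -0.02, and no test. Neutrophils are a possible source of Slc2a3 in tissue. Only 2 of 10 neutrophil markers could be tested, and Mmp9 (0.17) and S100a8 (-0.26) did not pass. The summed signals of all 10 were 1254 to 1978 in wild type and 1637 to 1960 in Pparg ldi/+. The part of neutrophils or of other cells in the Slc2a3 difference was not tested.

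The fructose carrier gene Slc2a5 was variable and did not pass. Its single probe set, 1416639_at, read 67.6, 185 and 181 in wild type and 345, 204 and 113 in Pparg ldi/+. The ranges overlapped widely, and the mutant arrays differed widely among themselves. The log2 difference was 0.50 (95% confidence interval -0.43 to 1.42, limma adjusted p = 0.390 over genes). The arrays with epididymal transcripts were the higher ones, and with array 3 alone the difference turned to -0.20, where the gene was too dim to be tested. The part of the epididymal transcripts in this spread was not tested.

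Slc2a9 encodes a transporter of urate and, in some assays, of hexoses. Probe set 1426568_at read 73.3, 141 and 146 in wild type and 190, 201 and 204 in Pparg ldi/+. The mutant arrays were tightly grouped and above all controls, yet the difference of 0.64 (95% confidence interval 0.09 to 1.19) did not pass (limma adjusted p = 0.0749 over genes). It passed in 1 of the 14 alternatives that tested it, with array weights, at 0.73 (limma adjusted p = 0.0423). Its other probe set, 1440873_at, read 143, 150 and 128 in wild type and 160, 85.4 and 141 in Pparg ldi/+. That set was too dim to be tested and differed by -0.13, so the probe sets of Slc2a9 did not point the same way, and their mean differed by 0.25. With mutant array 3 alone, 1426568_at differed by 0.67 and 1440873_at by 0.008. The latter was then the brighter set and stood for the gene, and neither was bright enough for the test.

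Slc2a8 encodes a transporter held mostly inside the cell. Probe set 1450628_at read 806, 788 and 718 in wild type and 878, 656 and 663 in Pparg ldi/+, with overlapping groups. The difference was -0.08 with a 95% confidence interval of -0.38 to 0.21 (limma adjusted p = 0.674 over genes). Its interval excludes a fall of the size seen for Slc2a4.

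Slc2a12, another transporter of insulin-responsive tissues, lay just under the brightness limit. Probe set 1435911_s_at read 178, 172 and 174 in wild type and 114, 120 and 94.9 in Pparg ldi/+. The control arrays were within a few units of each other and all mutant arrays were lower. The mean fell below the limit, at a log2 value of 7.42, so the difference of -0.55 (95% confidence interval -1.0 to -0.11) was not tested. With no filter on dim probe sets it did not pass (limma adjusted p = 0.114). With mutant array 3 alone the set was bright enough, and its difference of -0.70 did not pass (limma adjusted p = 0.141 over probe sets). The mean of both Slc2a12 sets differed by -0.20. The second set, 1455501_at, read 7.73 to 56.7 in wild type and 13.8 to 92.0 in Pparg ldi/+, and differed by 0.14.

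Slc2a6 encodes an intracellular transporter found in leukocytes and brain. Its probe set 1434015_at was dim, with 53.3, 79.5 and 58.6 in wild type and 71.6, 70.1 and 78.6 in Pparg ldi/+. The groups overlapped, the difference was 0.15, and no test was made.

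**Figure D3:**
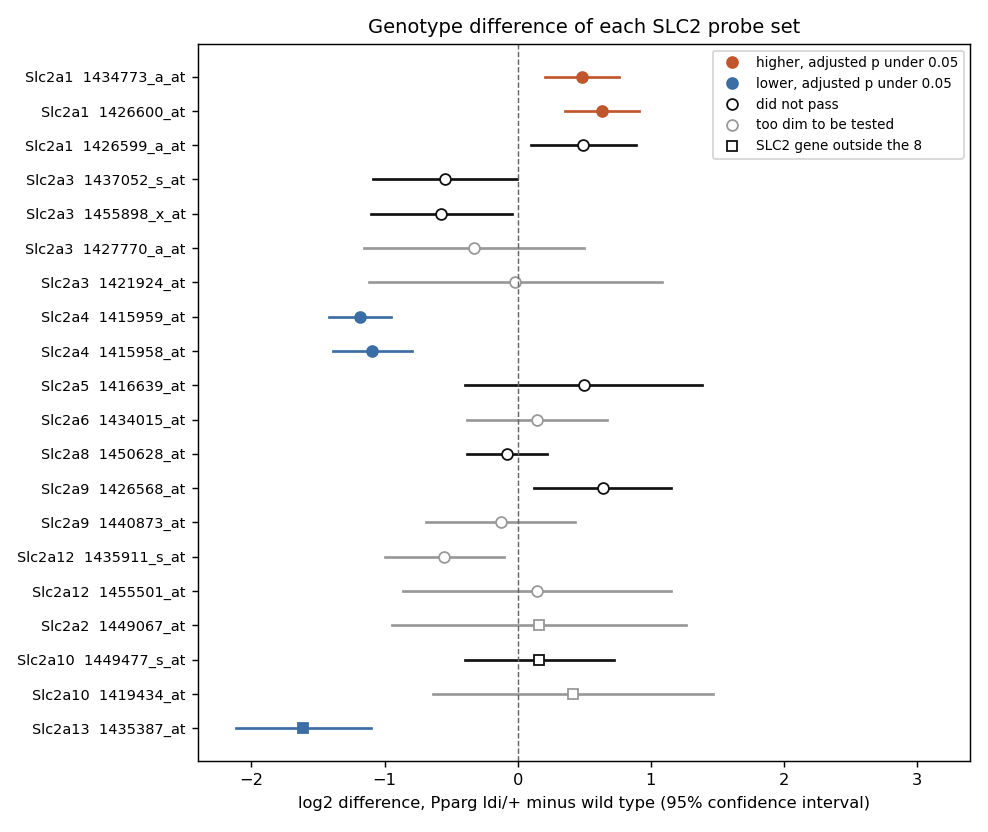
Log2 difference, Pparg ldi/+ minus wild type, of every SLC2 probe set with its 95% confidence interval; circles are the 8 members, squares are other SLC2 genes, filled symbols passed the test and grey ones were too dim for it. Both Slc2a4 sets lie near -1.1 and the 3 Slc2a1 sets between 0.48 and 0.63, while most other intervals cross or come close to 0.

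Among the other SLC2 genes on the array, Slc2a13 fell. It encodes a proton-coupled carrier of myo-inositol and not of glucose. Probe set 1435387_at read 328, 393 and 594 in wild type and 147, 106 and 103 in Pparg ldi/+, with no overlap. The fall was 3.05-fold (log2 -1.61, 95% confidence interval -2.14 to -1.08, limma adjusted p = 0.000954 over genes). Slc5a3, a sodium-coupled myo-inositol carrier of another family, also fell, from 4869 ± 663 to 2825 ± 218 (SD, n = 3; log2 -0.77, limma adjusted p = 0.00094). With the mean of its probe sets Slc5a3 no longer passed. Slc2a10, of the endoplasmic reticulum, differed by 0.16 (limma adjusted p = 0.673). Slc2a2, the carrier of liver and pancreatic beta cells, was too dim to be tested, at 12.5 to 145 in wild type and 64.6 to 104 in Pparg ldi/+.

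The genes whose values followed the called members most closely over the 6 arrays were named by Pearson's r. For Slc2a4 they were Atp9a, Kif13a and Dmxl2, with r of 0.999, 0.998 and 0.998 and log2 differences of -0.42, -1.06 and -0.97. For Slc2a1 they were Bmf, Cxcr6 and Gstm5, with r of 0.999, 0.996 and 0.995 and differences of 0.53, 1.45 and 2.16. The 6 points fall into 2 genotypes, so a high r mainly reflects a shared genotype difference. An r over 0.95 was reached by 738 genes with Slc2a4 (6.59% of the others tested) and by 151 with Slc2a1 (1.35%).

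Inside the cell, glucose is trapped by hexokinases and burnt by glycolysis. Of 21 genes of these steps tested, 10 rose and 3 fell, with a median of 0.24, beside 16.3% and 16.4% of all genes. Hk2, the hexokinase of insulin-sensitive tissues, fell 1.49-fold, from 2379 ± 56.3 to 1581 ± 22.5 (SD, n = 3; limma adjusted p = 0.000415). Hk3, the hexokinase typical of leukocytes, rose 3.03-fold, from 255 ± 37.2 to 838 ± 117 (SD, n = 3; limma adjusted p = 7.6e-05), and the widely expressed Hk1 was at 1323 and 1296. Pfkfb3, whose product makes the fructose bisphosphate that activates phosphofructokinase, had the largest change of the list, a 5.75-fold fall from 10470 ± 907 to 1791 ± 84.9 (SD, n = 3; log2 -2.52, limma adjusted p = 6.86e-07). The third gene that fell was Pgm1, a phosphoglucomutase, at -0.25, a call lost in 8 of 17 alternatives.

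The genes that rose came from several steps. Eno3, an enolase, rose 4.47-fold (limma adjusted p = 2.19e-05), Ldhb, of lactate dehydrogenase, 2.14-fold (limma adjusted p = 0.000247) and Pkm, of pyruvate kinase, 1.92-fold (limma adjusted p = 8.63e-05). The remaining rises were Aldoc at 1.46, Pfkl at 0.76, Pgk1 at 0.68, Pgam1 at 0.58, Pfkfb4 at 0.50 and Aldoa at 0.48. The call of Pfkfb4 was lost in 5 of 17 alternatives. Aldoc was dim in wild type, at a mean of 100, and reached the test through the mutant arrays. With mutant array 3 alone, Pfkfb3 differed by -2.46, Hk2 by -0.60, Hk3 by 1.81 and Eno3 by 2.1. The ACGTG core was present in the promoter windows of 5 of the 10 genes that rose and of all 3 that fell. It was also present for 5 of the 8 that did not pass. A gene counted if any window of it held the core, so the 16.6% of all single windows is not a like share. The macrophage markers moved with the genes that rose as they did with Slc2a1. The part of macrophages or of other cells was not tested.

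Carriers of lactate, pyruvate and other sugars were counted beside the 32.7% called among all genes, and the share for lactate and pyruvate was near it. Of 6 genes of lactate and pyruvate transport, 2 rose and 0 fell by limma (0 lower at an unadjusted p under 0.05 too): Slc16a7, a monocarboxylate carrier, 1.69-fold (limma adjusted p = 0.00249) and Emb, the accessory protein embigin, 2.26-fold (limma adjusted p = 0.0152). Slc16a1, the monocarboxylate carrier MCT1, differed by 0.19 and Bsg, its partner basigin, by -0.14, and neither passed. Neither rise passed with array 3 alone. Of 10 other sugar carriers 4 rose and 1 (Slc5a3) fell, led by the sugar phosphate carrier gene Slc37a2 at 1.59 and followed by Slc45a3 at 1.41, Slc37a4 at 0.48 and Slc45a4 at 0.44. Slc45a3 was dim in wild type, at a mean of 139, and reached the test through the mutant arrays. The Slc37a4 call was lost in 9 of 17 alternatives. With array 3 alone only Slc37a2 rose.

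Genes that handle the substrates of Slc2a5 and Slc2a9 were counted beside the 32.7% called among all genes. Of 5 genes of fructose and polyol handling, Akr1b8 (0.91) and Akr1a1 (0.22), both aldo-keto reductases, rose and Aldh2 fell (-0.68), while Khk, the fructose kinase gene, differed by 0.24 and did not pass. Of 7 genes of urate and purine handling 1 fell and 0 rose by limma, where 1 was higher at an unadjusted p under 0.05. It was Abcg2, an exporter of urate, at -0.35 (limma adjusted p = 0.0377), while Xdh, whose product makes urate, differed by -0.07, Ada, of adenosine deaminase, by 0.56 and Urah, of urate breakdown, by -0.43. The Abcg2 call was lost in 7 of 17 alternatives and that of Akr1a1 in 6. Aldh2 no longer passed with the mean of its probe sets. With array 3 alone Abcg2 differed by -0.48 and Akr1a1 by 0.25.

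**Figure D4:**
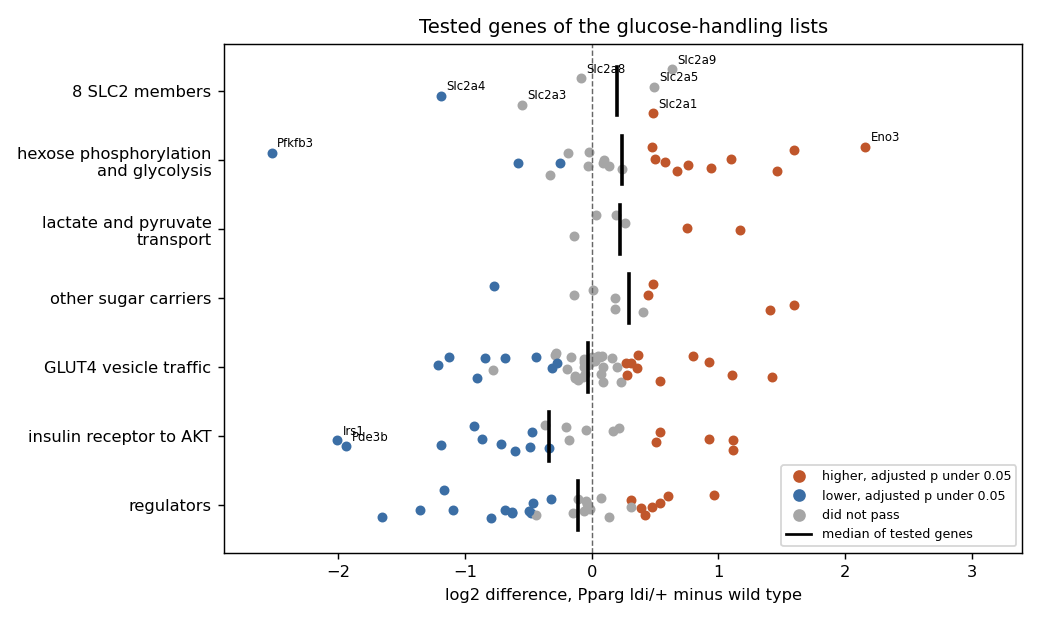
Log2 difference of each tested gene in the glucose-handling lists, with 1 point for each gene and a black line at the median of the list. In the glycolysis list 10 genes lie to the right as rises and Pfkfb3 lies farthest to the left at -2.52, while the GLUT4 traffic list has its median at -0.03.

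The machinery that moves GLUT4 vesicles had members called in both directions. Of 45 genes tested, 10 rose, 8 fell and 27 did not pass, with a median of -0.03, where 32.7% of all genes were called. Among those that fell were Myo1c, a motor that helps vesicles reach the surface (9980 ± 516 to 5545 ± 154, SD, n = 3; 1.79-fold, limma adjusted p = 3.74e-05), Ralgapa2, of the complex that restrains the vesicle GTPase RALA (2.18-fold, limma adjusted p = 9.82e-05), and Sort1, the sortilin that helps form the vesicles (1.60-fold, limma adjusted p = 0.000542). The adaptor gene Gga2 (-0.90), Syt7 (-1.21), Rab13 (-0.44), Stx6 (-0.31) and Vamp3 (-0.27) fell as well. The call of Stx6 was lost in 9 of 17 alternatives and that of Vamp3 in 7.

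Among the genes that rose were Exoc1, of the tethering complex exocyst (2.16-fold, limma adjusted p = 0.000101), and Myo5a, a vesicle motor (2.69-fold, limma adjusted p = 0.000181). The fusion genes Stxbp3 (Munc18c) and Snap23 rose by 0.37 and 0.31 (limma adjusted p = 0.00938 and 0.0462), and the Snap23 call was lost in 10 of 17 alternatives. Other genes of the insulin-driven step did not pass: Tbc1d4 (AS160), the AKT target that holds vesicles back, differed by -0.06, its GTPase Rab10 by -0.11, the tether Aspscr1 (TUG) by -0.06, and the fusion proteins Vamp2 and Stx4a by 0.08 and -0.13. With array 3 alone Myo1c differed by -0.82, Ralgapa2 by -1.11, Exoc1 by 1.24 and Myo5a by 1.6. Syt7 then differed by -0.85, Rab13 by -0.37 and Stxbp3 by 0.42.

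Upstream, of 21 genes from the insulin receptor to AKT, 10 fell and 5 rose, with a median of -0.33, beside 16.4% lower and 16.3% higher among all genes. Irs1, the main receptor substrate of adipocytes, fell 4.01-fold, from 2467 ± 426 to 595 ± 136 (SD, n = 3; log2 -2.0, limma adjusted p = 7.2e-05), and the fall was -2.38 with array 3 alone. Pde3b, of the phosphodiesterase that insulin uses to stop lipolysis, fell by 1.93, and Grb10, a receptor inhibitor, by 0.93. Akt2, the kinase that triggers GLUT4 movement, fell by 1.19, as Slc2a4 did. The rises were those of Ptpn1, Grb14, Socs3, Sh2b2 and Irs2, of which the last, a second substrate, rose by 0.51. The calls of Socs3 and Irs2 were lost in 7 and 6 of 17 alternatives. Insr, the receptor itself, fell by 0.49 (limma adjusted p = 0.0286). That call was lost in 6 of 17 alternatives. With array 3 alone Akt2 differed by -1.20, Insr by -0.50, Ptpn1 by 1.20, Grb14 by 0.69 and Irs2 by 0.56.

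Of 29 genes that regulate the amount or surface stay of these transporters, 12 fell, 7 rose and 10 did not pass, with a median of -0.11, where 32.7% of all genes were called. Pparg itself fell by 1.35 in the probe set that stood for it. Whether that probe set reads the ldi and wild-type transcripts alike is not known from the sources used here. Among activators of Slc2a4, Klf15 fell 3.14-fold, from 1234 ± 211 to 369 ± 41.2 (SD, n = 3, limma adjusted p = 6.7e-05). Cebpa fell by 1.09 and Nr1h3, the gene of the liver X receptor alpha, by 0.68. Ebf1 (-1.16), Foxo1 (-0.79), Prkaa2 (-0.625), Srebf1 (-0.50), Hdac5 (-0.48) and Nfic (-0.32) fell too and are not grouped as activators here. The Nfic call was lost in 6 of 17 alternatives. Mef2a, of a muscle and fat activator of Slc2a4, differed by -0.01, and its relatives Mef2c and Mef2d rose by 0.39 and 0.31. Myc, whose product activates Slc2a1, rose 1.96-fold, from 318 ± 95.1 to 638 ± 25.3 (SD, n = 3; limma adjusted p = 0.00381). The hypoxia factor genes Hif1a (0.08) and Arnt (-0.04) did not pass, and Epas1 fell by 0.63.

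Txnip, whose product removes GLUT1 and GLUT4 from the surface, fell by 0.46 (limma adjusted p = 0.00996), and its relative Arrdc4 rose by 0.60 (limma adjusted p = 0.00909). The other rises in this list were Mlxipl at 0.54, Nr4a1 at 0.48 and Cebpd at 0.42. The call of Cebpd was lost in 7 of 17 alternatives and that of Mef2d in 5. With array 3 alone Klf15 differed by -1.66, Cebpa by -1.09, Myc by 0.97 and Mlxipl by 0.54. Txnip then differed by -0.51, Arrdc4 by 0.45, Nr4a1 by 0.30, Hdac5 by -0.30 and Mef2c by 0.41.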

How the data were processed

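Transcript intensities were measured on 6 arrays, 3 per genotype, grouped by sample title. Per the labels, each array took RNA of a single mouse; the authors deposited linear intensities, 1 for each probe set. MAS5 is named in the submitters' processing notes for 2 of the 6 samples; the sources used here give no version, scaling target, detection calls or genome build.

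The 2% trimmed mean of every array was set to 500 (factors 2.12 to 2.49), and log2 was taken after adding 32. Of 45101 probe sets 64 controls were left out. Symbols came from the platform annotation, updated through a RefSeq table (GRCm38.p6). The filter, lmFit and eBayes with an intensity trend were run in limma 3.58.1 (R 4.3.3), once on 11201 genes and once on 22519 probe sets, with no covariates. Promoters came from RefSeq. The fit was tested on simulated data with 200 changed features, far fewer than were called here. Changes of 0.5 in log2 were recovered for 45.3% of genes and 27.7% of probe sets, and changes of 1 for 89.9% and 89.6%. Of the unchanged features 15 genes and 11 probe sets were called. Differences near 0.5 can therefore be missed, and not passing does not show that such a gene is unchanged.

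Members and lists were chosen with earlier results of these data known. Named genes were all members and other SLC2 genes, the 4 of each list with the smallest p, those called against the list's majority and the 3 most correlated with each called member. Lists of red cell, Schwann cell, lymphocyte and mesothelial markers were also counted. Of 2, 4, 4 and 11 tested, 0, 2, 3 and 0 rose and 0, 0, 0 and 7 fell. In the epididymal list 4 of 7 passed as higher. The summed signal of that list was high on Pparg ldi/+ arrays 1 and 2 alone, so its count does not describe all mutant arrays. Any further gene in the text was picked with its value known. The labels do not say that the title's numbers pair animals. The alternatives changed the offset, scaling, filter, variance model, probe set choice, threshold and block, and left out arrays.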

Additional observations from a re-analysis of the deposited data

How the results depend on the processing

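The fall of Slc2a4 passed in all 18 alternatives (log2 difference -1.40 to -1.08), and Slc2a1 passed in 16 of 18 (0.42 to 0.59). The number of SLC2 genes called higher, 1, became 2 with array weights, which also moved the probe sets called higher from 2 to 4. At an adjusted p under 0.01, 0 genes and 1 probe set were higher by limma (2 and 4 at an unadjusted p under 0.05), and the glucose-handling genes called higher fell from 40 to 23. With Pparg ldi/+ array 3 alone, 0 SLC2 genes and 0 probe sets were higher (1 and 2 at an unadjusted p under 0.05), with 17 glucose-handling genes higher and 21 lower where the full set gave 40 and 36. Leaving out 1 array at a time gave 0 to 1 SLC2 genes higher and 1 to 2 lower, and 1 to 3 probe sets higher and 2 to 4 lower; the second lower gene was Slc2a3, without wild-type array 2. Across these, 29 to 38 glucose-handling genes were higher and 30 to 34 lower. The number of all genes called also differs between settings and is not given here, so these counts are not results about the lists. Slc2a10 went from 0.16 to -0.001 without Pparg ldi/+ array 3. With the replicate block 1 SLC2 gene was lower and 1 higher, as without it, and 30 and 37 glucose-handling genes; same-numbered arrays had deviations correlated at -0.13, -0.09 and -0.10, so the numbers gave no sign of pairing. No detection calls were used, so dim probe sets could not be called present or absent.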
